A study of Arabidopsis thaliana with 6 samples.

Results

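The Aux/IAA transcriptional repressors and the TIR1/AFB auxin receptors were followed in root tips of Arabidopsis thaliana. The members were taken by locus: 29 Aux/IAA genes (IAA1 to IAA20 and IAA26 to IAA34) and 6 receptor genes (TIR1 and AFB1 to AFB5), together 35 of the 37336 genes counted. RNA was sequenced from 3 samples of the Col-0 wild type and 3 of the hsl2 mutant, all labelled with the Col-0 ecotype. Each sample was the last 0.5 mm of the primary root, cut from seedlings aged 7 days that were grown on sucrose-free agar in a long-day light cycle (16 h light). HSL2 is a leucine-rich repeat receptor kinase of the HAESA family, known from the separation of plant cells, and the stated purpose of the series is to learn how its loss affects the shedding of root cap cells. The sources used here do not give the mutant allele or the number of roots in a sample. The labels do not state that the 3 samples of a group are independent batches of plants, and p-values therefore measure sample-to-sample spread, some of which may be technical.

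Auxin acts as a glue between a receptor and a repressor. TIR1 and the AFB proteins are the F-box subunits of an SCF ubiquitin ligase, and auxin bound in their pocket holds the short degron of an Aux/IAA protein, which is then ubiquitinated and degraded by the proteasome. When auxin is scarce, Aux/IAA proteins bind auxin response factors (ARFs) on target promoters and recruit TOPLESS co-repressors through an EAR motif. Many Aux/IAA genes are themselves switched on by auxin, which makes the family part of a negative feedback loop. Across the root as a whole, the system sets the size of the meristem, the identity of the columella and the start of lateral roots.

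The degron core, a Gly-Trp-Pro-Pro run, was found in the reference proteins of 23 of the 29 Aux/IAA genes and was absent from IAA20, IAA30, IAA31, IAA32, IAA33 and IAA34. The Leu-x-Leu-x-Leu pattern of the EAR motif was present in 28 of them, with IAA33 as the exception. The reading frame around the core is shown for the 8 Aux/IAA genes with the smallest p-values in the comparison below, because this stretch is what the receptors bind. The bases are the coding strand of the TAIR10.1 reference genome from RefSeq, with introns removed, and the capitals mark the 4 codons of the core.
IAA28: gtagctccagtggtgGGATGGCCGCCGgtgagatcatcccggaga
IAA18: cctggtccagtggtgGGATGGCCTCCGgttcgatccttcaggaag
IAA3: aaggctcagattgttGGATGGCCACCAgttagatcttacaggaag
IAA17: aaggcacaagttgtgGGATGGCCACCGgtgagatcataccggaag
IAA2: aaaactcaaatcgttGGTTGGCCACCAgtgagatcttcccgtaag
IAA4: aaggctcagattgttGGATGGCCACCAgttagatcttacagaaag
IAA16: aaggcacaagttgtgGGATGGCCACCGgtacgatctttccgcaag
IAA12: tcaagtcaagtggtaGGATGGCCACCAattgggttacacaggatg
The IAA28 stretch lies at chr5:9033806-9033850 on the plus strand and the IAA18 stretch at chr1:19306225-19306269 on the plus strand, each within a single exon. Those of IAA3 (chr1:1129010-1129136, minus strand), IAA17 (chr1:1136619-1136976, plus strand), IAA2 (chr3:8181378-8181514, minus strand), IAA4 (chr5:17550642-17550778, plus strand), IAA16 (chr3:1289721-1290214, minus strand) and IAA12 (chr1:1240780-1241096, plus strand) each span an intron.

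The deposited counts summed to between 15051468 and 20468890 per library, with between 21302 and 21866 genes detected. A count of 3 equalled 0.148 to 0.213 CPM, read counts scaled to TMM-adjusted library sizes, and this marks the level under which a library carries little information on a gene. HSL2 itself had 6.98, 8.61 and 7.22 CPM in wild type 1 to 3 and 7.61, 9.76 and 9.81 CPM in hsl2 1 to 3 (log2 fold change 0.26 ± 0.18 SE, edgeR adjusted p = 0.537). The groups overlapped, so the HSL2 count does not check the genotype labels, and without the allele its level cannot be read further. Markers of root cap were found in every library, as were those of the meristem, although the niche marker WOX5 had only 4 to 14 counts. Summed over 7 genes, root cap markers reached 145 to 279 CPM in wild type and 107 to 145 CPM in hsl2. Root hair markers (7 genes) ranged from 30.8 to 58.3 CPM in wild type, the highest in wild type 3, and from 52.6 to 67.5 CPM in hsl2. Markers of green shoot tissue (4 genes) ranged from 4.97 to 11.3 CPM in wild type and from 12.6 to 69.6 CPM in hsl2, the highest in hsl2 1. Those of vascular and endodermal differentiation (4 genes) ranged from 13.9 to 20.03 and from 19.4 to 26.2 CPM, and meristem markers (5 genes) from 178 to 200 and from 135 to 215 CPM. Among all these markers LHCB2.1 alone was at 0 in any library, in wild type 2. In whole root tips, fewer cells of a type and less RNA per cell cannot be told apart.

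To compare genes with each other, CPM was divided by exon length in kb. IAA9 had the highest level in wild type, with 124, 120 and 138 CPM per kb in wild type 1 to 3. AFB1 followed with 99.9, 114 and 115 CPM per kb, and IAA16 with 64.0, 82.6 and 90.1 CPM per kb. The wild type values of IAA9 and AFB1 did not overlap, nor did those of AFB1 and IAA16. TIR1 had 65.0, 56.1 and 78.9 CPM per kb, within the spread of IAA16 above it and of IAA7 (52.7, 56.7 and 53.2) below it. IAA17 stood at 40.6, 57.9 and 58.1 CPM per kb and IAA8 at 47.3, 45.7 and 46.8, and neither neighbour in the order IAA7, IAA17, IAA8 was separated from the next. IAA4, AFB2, AFB3 and AFB5 formed the next group, with wild type means from 32.9 down to 27.4 CPM per kb. Below them the means ran from 22.5 CPM per kb for IAA2 down to 0.675 CPM per kb for IAA6, the lowest of the 29 members that passed the filter on low counts. The 6 members under the filter ran from 0.234 CPM per kb for IAA34 down to 0 for IAA15.

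**Figure D1:**
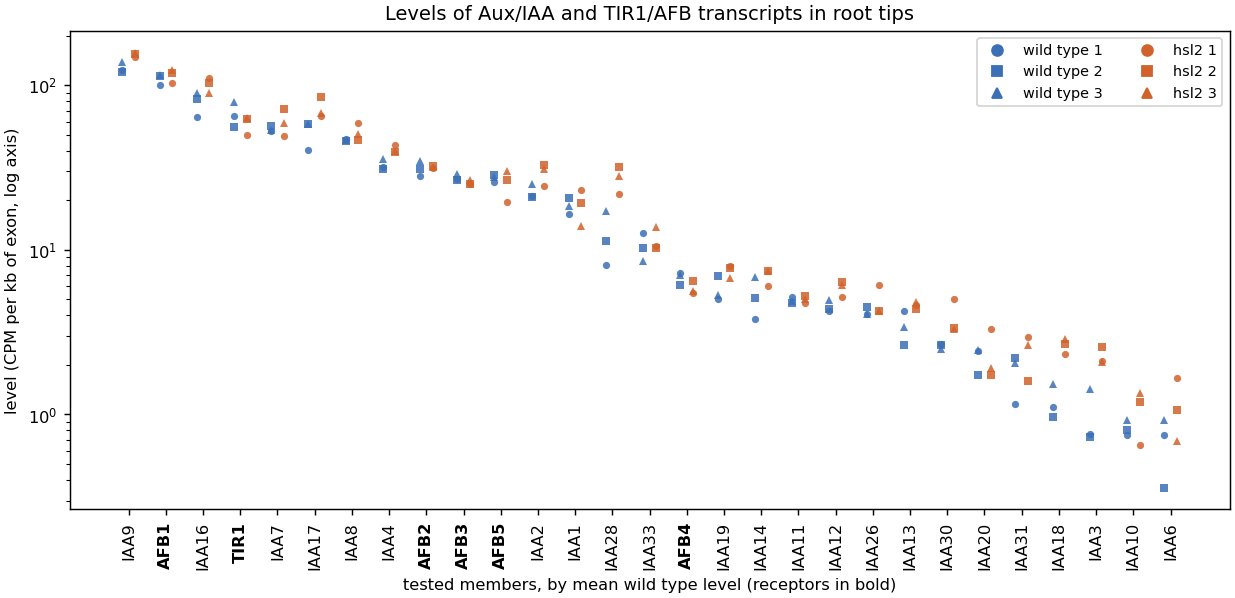
Level of each of the 29 tested members in CPM per kb of exon (log axis), 1 point per library, blue for wild type and orange for hsl2, ordered by the wild type mean. IAA9 and AFB1 lie highest, and the tested Aux/IAA genes span more than 2 decades, down to IAA6 at a mean of 0.675 CPM per kb.

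A few genes made up most of each family's transcript. IAA9, IAA16, IAA7, IAA17 and IAA8 together gave 72.6% of the summed wild type Aux/IAA level per kb, IAA9 alone 25.7%. All 5 carry the degron core. The most abundant member without it was IAA33, at 10.5 ± 2.08 CPM per kb (SD, n = 3) in wild type. IAA33 is a non-canonical family member known from the root stem cell region. Among receptors, AFB1 gave 40.7% and TIR1 24.8% of the summed wild type level per kb, and AFB4 gave 2.53%.

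Genotypes were compared over all genes with edgeR's quasi-likelihood test. The filter on low counts kept 17989 genes, and of the 35 members it kept 29: all 6 receptors and 23 of the 29 Aux/IAA genes. At a Benjamini-Hochberg adjusted p under 0.05 edgeR called 0 of the 35 members and 0 genes in all (0.00%). At an unadjusted p under 0.05 1355 genes were higher in hsl2 and 1081 were lower. By DESeq2, 292 genes passed (1.62%), among them 2 members, IAA28 and IAA18, and limma-voom called 0.

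The receptor genes showed no called difference. TIR1 (AT3G62980), the founding receptor, had 172, 149 and 209 CPM in wild type 1 to 3 and 133, 164 and 167 CPM in hsl2 1 to 3. Its log2 fold change, hsl2 over wild type, was -0.19 ± 0.16 (SE, edgeR adjusted p = 0.6002). AFB1 (AT4G03190), known from fast auxin responses in roots, had 232, 264 and 267 CPM against 239, 275 and 289 CPM. Its log2 fold change was 0.07 ± 0.13 (edgeR adjusted p = 0.828), and for both genes the groups overlapped.

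The close pair AFB2 (AT3G26810) and AFB3 (AT1G12820) was measured with small errors. AFB2 had 76.4, 84.5 and 95.3 CPM in wild type and 85.6, 88.9 and 87.3 CPM in hsl2, and AFB3 had 60.4, 59.0 and 64.7 against 56.4, 56.1 and 59.2 CPM. Their log2 fold changes were 0.03 ± 0.13 and -0.10 ± 0.12 (edgeR adjusted p = 0.928 and 0.711). AFB4 (AT4G24390) and AFB5 (AT5G49980) form the branch known for its response to the synthetic auxin picloram. AFB4 had 21.1, 17.97 and 20.5 CPM in wild type and 16.01, 19.01 and 16.4 CPM in hsl2, and AFB5 had 65.1, 72.1 and 70.4 against 49.5, 67.3 and 76.5 CPM. Their log2 fold changes were -0.21 ± 0.14 and -0.10 ± 0.17 (edgeR adjusted p = 0.525 and 0.798). All 4 pairs of groups overlapped, and for AFB5 the lowest value was that of hsl2 1. The annotated AFB4 gene overlaps AT4G24380 on the opposite strand by 644 bases. Since the strand setting of the counting is not given, reads in that stretch could belong to either gene. AFB1, AFB3, IAA10 and IAA13 also overlap genes of the opposite strand, by 423 to 1176 bases, and those genes had 0 to 2 counts. In shorter stretches, of 12 to 63 bases, AFB1, AFB3, IAA5, IAA11 and IAA27 overlap opposite-strand genes with 74 to 2446 counts. How reads in these stretches were counted is not known.

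All 23 tested Aux/IAA genes had a log2 fold change above 0, with a median of 0.38 and a range from 0.02 to 1.22, where 51.6% of all tested genes were above 0 and their median was 0.01. Of the 6 receptors 2 were above 0, and their median was -0.10, which became -0.048 without hsl2 1 and 0.056 without hsl2 1 and wild type 3. The difference between the families was not tested. At an unadjusted p under 0.05, 8 Aux/IAA genes were higher and 0 lower in hsl2, against 7.53% of all tested genes higher and 6.01% lower. The 3 hsl2 libraries all lay above the 3 wild type libraries for 9 of the 23, namely IAA3, IAA4, IAA9, IAA12, IAA13, IAA17, IAA18, IAA28 and IAA30, and all below for 0. Over all tested genes these shares were 11.3% and 9.44%. These counts and medians describe the list and are not a test of it.

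**Figure D2:**
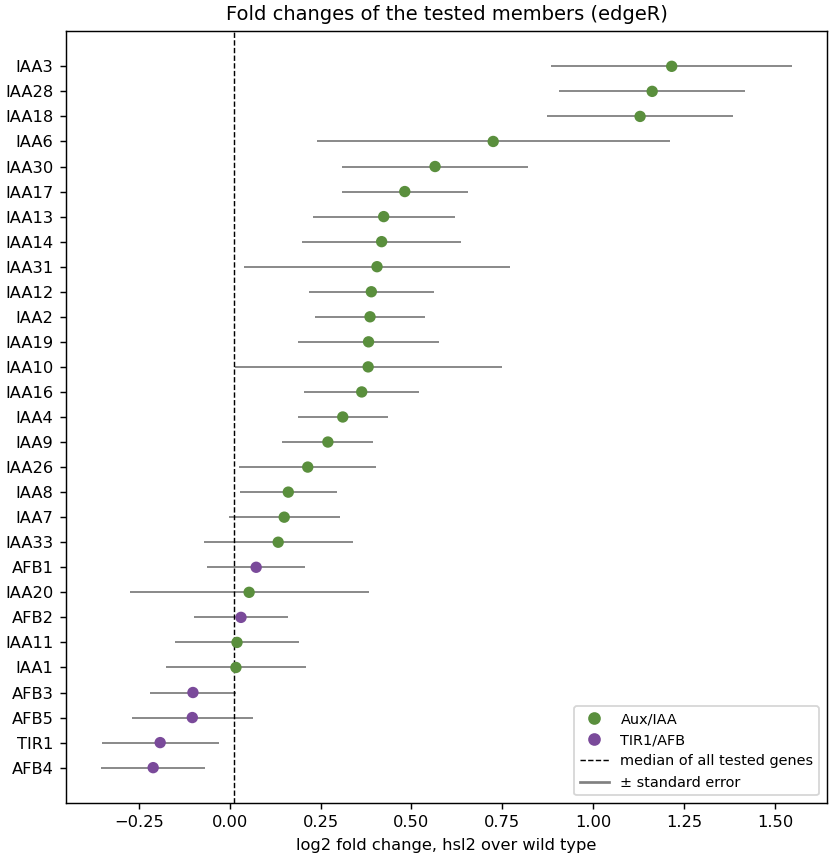
Log2 fold change of hsl2 over wild type with its standard error for the 29 tested members, Aux/IAA in green and TIR1/AFB in purple, from the edgeR fit; the dashed line is the median of all tested genes. IAA3, IAA28 and IAA18 lie above 1, and the 6 receptors lie between -0.21 and 0.07.

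IAA28, IAA18 and IAA3 had fold changes above 2-fold. IAA28 (AT5G25890) is a repressor whose stabilising mutation blocks lateral root formation. It had 11.2, 15.8 and 24.1 CPM in wild type 1 to 3 and 30.5, 44.4 and 38.9 CPM in hsl2 1 to 3, so that the lowest hsl2 library lay above the highest wild type library. The means were 17.02 ± 6.53 and 37.9 ± 6.98 CPM (SD, n = 3 each), a log2 fold change of 1.16 ± 0.26. Its unadjusted p was 0.00103, which over all genes became an edgeR adjusted p of 0.173. DESeq2 gave an adjusted p of 0.00287, and over all alternative settings the adjusted p ran from 0.00116 to 0.620. The 0.00116 is edgeR's value without hsl2 1 and wild type 3, a choice made after seeing the data.

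IAA18 (AT1G51950), whose stabilising mutations also reduce lateral roots, was less abundant. It had 1.97, 1.72 and 2.73 CPM in wild type and 4.13, 4.80 and 5.10 CPM in hsl2, again without overlap. The log2 fold change was 1.13 ± 0.26, with an edgeR adjusted p of 0.176 and a DESeq2 adjusted p of 0.0298 (range over the alternatives 0.0137 to 0.739). The 0.0137 likewise came from edgeR without hsl2 1 and wild type 3. IAA18 is the family member closest to IAA28 in protein sequence, with 55.4% identical residues over the shorter protein, while its own closest relative is IAA26.

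IAA3 (AT1G04240), also called SHY2, restrains auxin response at the boundary between root meristem and elongation zone. It had only 21, 16 and 32 counts in wild type and 40, 69 and 43 counts in hsl2, or 1.03, 0.984 and 1.94 against 2.85, 3.49 and 2.81 CPM. The groups did not overlap, and the log2 fold change was 1.22 ± 0.33 (edgeR adjusted p = 0.229). The annotated IAA3 gene overlaps AT1G04230 on the opposite strand by 640 bases, and that gene had 179 to 327 counts with a log2 fold change of -0.08. Reads of the pair cannot be told apart without the strand setting, so the IAA3 value is uncertain.

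For IAA28, IAA18 and IAA3 the highest wild type library was wild type 3, the library with the most root hair marker transcript of its group. Of the wild type libraries it also had the most green and differentiation marker transcript and the least root cap and meristem marker transcript. Without wild type 3 the log2 fold change of IAA28 was 1.499 and edgeR's adjusted p 0.0444. Without hsl2 1 it was 1.27, with an adjusted p of 0.147. With both left out, a choice made after seeing the data, edgeR called 1311 of the 18214 genes tested in that setting. Among them were 6 members: IAA2, IAA3, IAA14, IAA17, IAA18 and IAA28, all from the 24 Aux/IAA genes tested there. The part that cell composition plays in these differences was not tested.

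**Figure D3:**
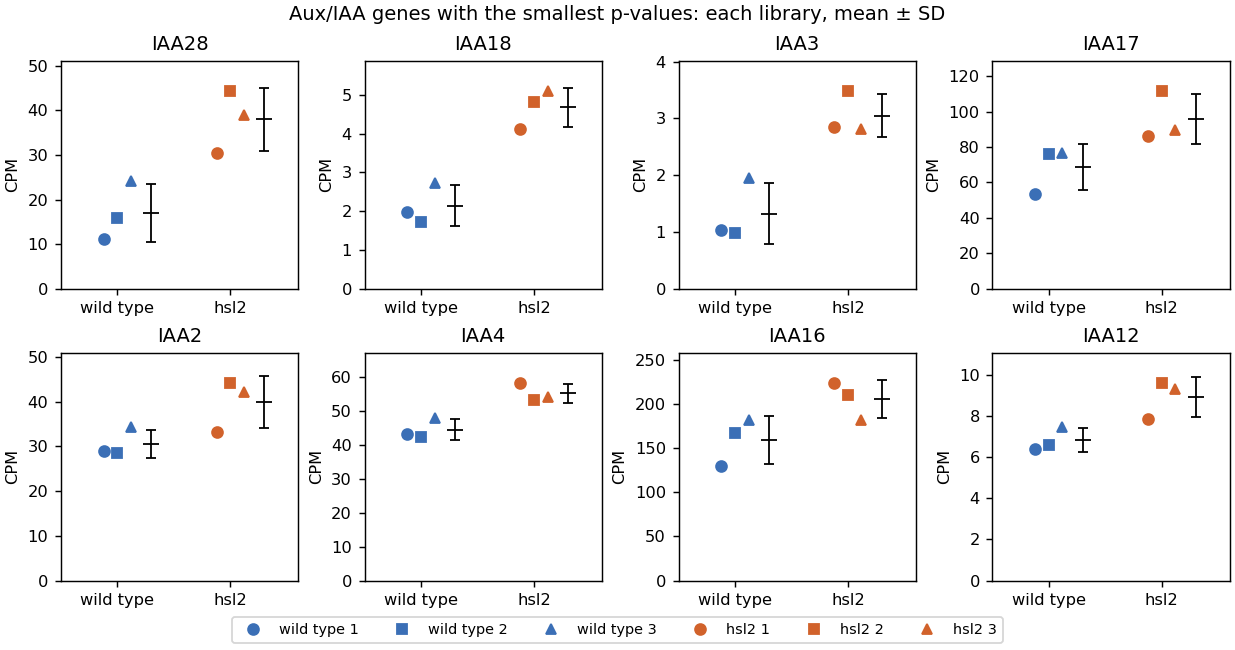
CPM in each library for the 8 Aux/IAA genes with the smallest p-values, blue for wild type and orange for hsl2; bars give the mean ± SD of 3 libraries, and each axis starts at 0. IAA28, IAA18 and IAA3 show the widest gaps, while IAA2 and IAA16 overlap between the groups.

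The other 5 genes with an unadjusted p under 0.05 differed by smaller amounts. IAA17 (AT1G04250), known as AXR3, had 53.5, 76.3 and 76.5 CPM in wild type and 86.1, 112 and 89.8 CPM in hsl2. Its log2 fold change was 0.48 ± 0.17 (edgeR adjusted p = 0.319), and the groups did not overlap although wild type 1 lay well below the other two. IAA2 (AT3G23030), whose promoter is widely used to report auxin response in roots, had 29.01, 28.4 and 34.2 against 33.3, 44.2 and 42.1 CPM. Wild type 3 lay above hsl2 1, and the log2 fold change was 0.39 ± 0.15 (edgeR adjusted p = 0.339).

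IAA4 (AT5G43700) had 43.3, 42.3 and 48.1 CPM in wild type and 58.4, 53.3 and 54.1 CPM in hsl2, without overlap. Its log2 fold change was 0.31 ± 0.12 (edgeR adjusted p = 0.342). IAA12 (AT1G04550), or BODENLOS, acts with ARF5 in founding the embryonic root. It had 6.39, 6.58 and 7.46 CPM against 7.83, 9.61 and 9.29 CPM, a log2 fold change of 0.39 ± 0.17 (edgeR adjusted p = 0.365), and the groups were separate. IAA16 (AT3G04730) had 130, 167 and 182 CPM in wild type and 224, 210 and 182 CPM in hsl2. Wild type 3 and hsl2 3 were nearly equal, and the log2 fold change was 0.36 ± 0.16 (edgeR adjusted p = 0.363).

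The abundant Aux/IAA genes had modest fold changes. IAA9 (AT5G65670) had 266, 257 and 294 CPM in wild type and 317, 333 and 336 CPM in hsl2. The groups did not overlap, and the log2 fold change was 0.27 ± 0.12 (unadjusted p = 0.0556, edgeR adjusted p = 0.376). IAA9 lies near HSL2 on chromosome 5, with 5 protein-coding genes between them in the TAIR10.1 annotation. IAA7 (AT3G23050), known as AXR2, had 101, 108 and 101 CPM against 94.2, 137 and 113 CPM, and IAA8 (AT2G22670) had 97.4, 94.0 and 96.3 against 122, 95.5 and 104 CPM. Both overlapped between the groups, with log2 fold changes of 0.15 ± 0.15 and 0.16 ± 0.13 (edgeR adjusted p = 0.668 and 0.593). Single libraries decided both values: IAA7 was at 0.0041 without hsl2 2 and 0.25 without hsl2 1, and IAA8 at 0.034 without hsl2 1.

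Among the 12 remaining tested genes of the family, log2 fold changes ran from 0.02 for IAA1 and IAA11 to 0.73 for IAA6, and edgeR adjusted p-values from 0.370 to 0.973. IAA14, or SOLITARY-ROOT, which blocks the first divisions of lateral root founder cells when stabilised, had a log2 fold change of 0.42 ± 0.22. IAA19, which acts in tropic growth, had 0.38 ± 0.19, IAA13 had 0.42 ± 0.20 and IAA10 had 0.38 ± 0.37. IAA26 stood at 0.21 ± 0.19, IAA20 at 0.05 ± 0.33, IAA30 at 0.57 ± 0.26, IAA31 at 0.41 ± 0.37 and IAA33 at 0.13 ± 0.20. The 4 tested members without the degron core (IAA20, IAA30, IAA31 and IAA33) had a median of 0.27, and the 19 tested members with it a median of 0.38. Those 4 have exon lengths from 759 to 994 bases. Over all tested genes under 1 kb the median was 0.21, and the part of length was not tested.

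For 6 Aux/IAA genes the counts were under the filter. IAA15 had 0 counts in every library, which allows at most 0.148 to 0.213 CPM. IAA5 had 2, 1 and 0 counts in wild type and 0 in each hsl2 library. IAA27 had 0 to 4 counts, IAA29 0 to 10, IAA34 1 to 10 and IAA32 2 to 13. No difference was detectable for these genes at this depth. The annotations of IAA32 and IAA34 overlap the more highly counted AT2G01210 and AT1G15060, so that their few reads may not be their own.

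By protein identity, 10 pairs of Aux/IAA genes and 3 pairs of receptors were each other's closest relative. Levels within a pair were close in some, such as AFB2 and AFB3 (1.14-fold apart per kb in wild type), and far apart in others. IAA3 and IAA4 share 78.5% of residues over the shorter protein, yet IAA4 was 33.7-fold more abundant per kb in wild type. The IAA3 values here are uncertain, with 16 to 32 counts in wild type and reads not told apart from those of AT1G04230. IAA7 and IAA14 share 86.0%, and IAA7 was 10.3-fold more abundant, while IAA20 and IAA30 share 84.9% and differed 1.18-fold. The fold changes between genotypes were also uneven within pairs: 1.22 ± 0.33 for IAA3 and 0.31 ± 0.12 for IAA4, and 1.13 ± 0.26 for IAA18 and 0.21 ± 0.19 for IAA26, on the log2 scale. IAA12 and IAA13, at 73.4% identity over the shorter protein, had 0.39 ± 0.17 and 0.42 ± 0.20. The gene models used gave 173 residues for IAA12 and 246 for IAA13, so that this identity leaves out part of IAA13. The differences within pairs were not tested. On the chromosomes, IAA3 and IAA17, IAA2 and IAA7, and IAA14 and IAA1 are neighbours on opposite strands, transcribed away from each other, with 0 protein-coding genes between them.

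Summed over the 29 genes, Aux/IAA transcript was 811, 872 and 943 CPM in wild type 1 to 3 and 1074, 1131 and 1059 CPM in hsl2 1 to 3. The means were 875.5 ± 66.1 and 1088 ± 38.3 CPM (SD, n = 3 each), 1.24-fold higher in hsl2 without overlap of the libraries. Summed receptor transcript was 627, 647 and 727 CPM in wild type and 579, 671 and 695 CPM in hsl2, which overlapped. The ratio of summed Aux/IAA to summed receptor CPM was 1.29, 1.35 and 1.298 in wild type and 1.85, 1.69 and 1.52 in hsl2. The ratio was highest in hsl2 1, and the other two hsl2 libraries also lay above every wild type library. No test was made of these sums, since the members were chosen with earlier results known.

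**Figure D4:**
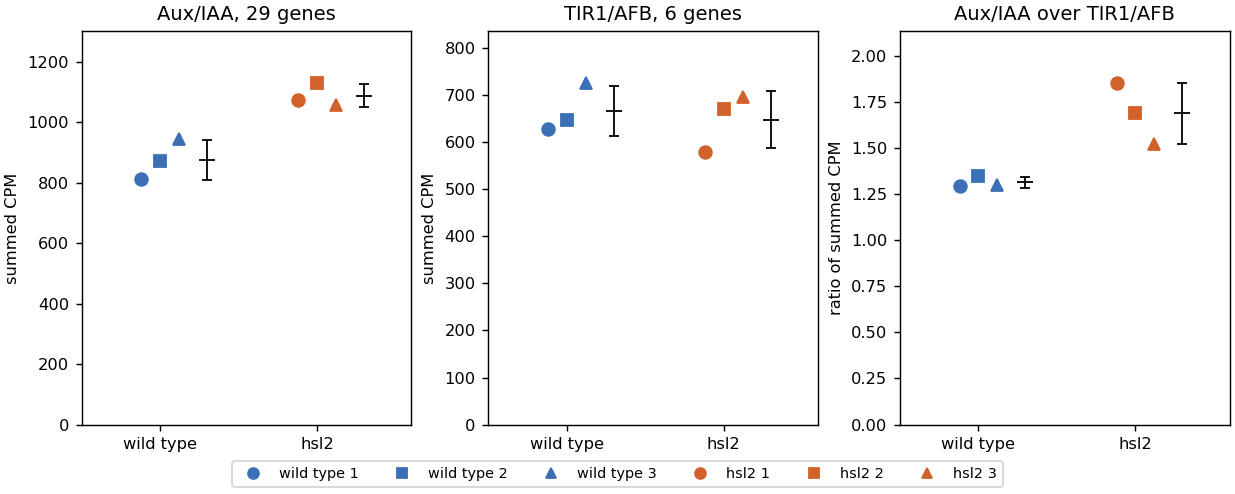
Summed CPM of the 29 Aux/IAA genes, of the 6 TIR1/AFB genes, and the ratio of the sums, 1 point per library with the mean ± SD of 3 libraries; each axis starts at 0. The Aux/IAA sums separate the genotypes (811 to 943 against 1059 to 1131 CPM), and the receptor sums overlap.

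Exon length moved with the comparison. Median log2 fold changes of all tested genes ran from 0.21 for genes under 1 kb through 0.14, 0.03 and -0.07 to -0.23 for genes over 3 kb. Without hsl2 1 the same medians ran from 0.03 to -0.12, so the trend was widest with that library. Tested and untested Aux/IAA genes have exon lengths from 759 to 2222 bases and receptors from 2234 to 2917 bases. Measured from the median of their own length class, 19 of the 23 tested Aux/IAA genes lay above it, and the median over all 23 was 0.28. Without hsl2 1 it was 20 of 23, with a median over all 23 of 0.32. Of the 6 under 1 kb, 3 lay above their class median, and IAA1, IAA20 and IAA33 lay below it (-0.20, -0.16 and -0.08 relative to it). In the 2 to 3 kb class, which holds all 6 receptors, the 5 Aux/IAA genes IAA8, IAA9, IAA13, IAA16 and IAA26 all lay above the class median, as did AFB1 and AFB2. Without hsl2 1, 20 of 23 tested Aux/IAA genes had a log2 fold change above 0, against 46.1% of all tested genes, and IAA1, IAA20 and IAA26 did not. Without hsl2 1 and wild type 3 it was 22 of 24, against 49.7%.

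**Figure D5:**
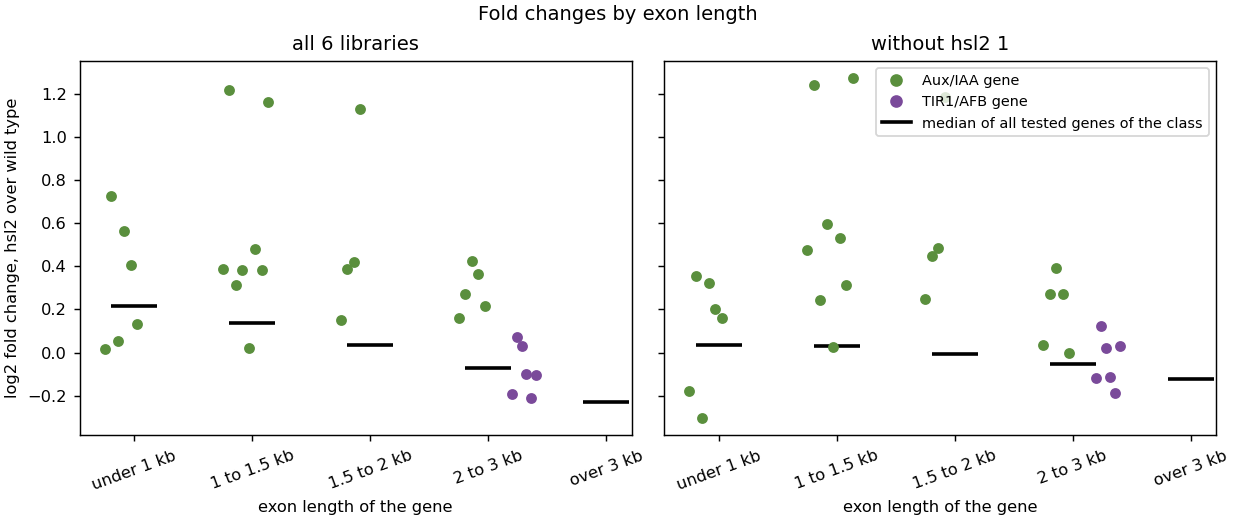
Log2 fold change of hsl2 over wild type for the tested Aux/IAA (green) and TIR1/AFB (purple) genes by exon length class, with all 6 libraries (left) and without hsl2 1 (right); black lines are the medians of all tested genes of a class. The lines slope from 0.21 to -0.23 on the left and from 0.03 to -0.12 on the right, and most Aux/IAA points lie above their line in both.

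Other parts of the pathway were read from lists of their own. The SCF subunits and the NEDD8 enzymes that activate them numbered 10, all tested, with a median of 0.13 on the log2 scale. Of these 6 were above and 4 below 0, where 51.6% of all tested genes were above 0. Their summed level was highest in hsl2 1, at 1458 CPM, while hsl2 3, at 1263 CPM, lay within the wild type range of 1188 to 1276 CPM and hsl2 2 just above it, at 1287 CPM. RCE1, the NEDD8-conjugating enzyme, was the member at an unadjusted p under 0.05. It had 79.3, 69.3 and 84.2 CPM in wild type and 118, 96.3 and 92.9 CPM in hsl2 (log2 fold change 0.40 ± 0.14, edgeR adjusted p = 0.319). RCE1 was the list's 1 member with every hsl2 library above every wild type library, against 11.3% of all tested genes. RBX1A, the RING subunit, had 88.8, 76.1 and 96.98 CPM in wild type and 132, 95.5 and 94.3 CPM in hsl2 (0.30 ± 0.17, edgeR adjusted p = 0.453). The highest RBX1A library was hsl2 1, and the other hsl2 libraries lay within the wild type range. Its exon length of 932 bases falls in the class with a median of 0.21, and the part of length was not tested. CAND1, which exchanges F-box subunits on the ligase, was picked out after its values were seen. CAND1 was the list's 1 member with every hsl2 library below every wild type library, against 9.44% of all tested genes. It had 134, 130.2 and 124 CPM in wild type and 80.2, 122 and 122 CPM in hsl2 (-0.26 ± 0.17, edgeR adjusted p = 0.512). Here hsl2 1 was the lowest library. The exon length of CAND1, 4210 bases, falls in the class whose median over all tested genes was -0.23, and the part of length was not tested.

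The 5 TOPLESS co-repressors all had a log2 fold change below 0, with a median of -0.35, where 48.4% of all tested genes were below 0. For 4 of them every hsl2 library lay below every wild type library, against 9.44% of all tested genes. Their summed level was 501, 496 and 496 CPM in wild type and 296, 420.3 and 477 CPM in hsl2, with hsl2 1 far below the others. TPR3 had 25.96, 25.4 and 22.5 CPM in wild type and 15.7, 20.9 and 20.9 CPM in hsl2 (-0.36 ± 0.15, edgeR adjusted p = 0.360). TPR4 had 88.1, 94.2 and 84.4 against 50.2, 71.5 and 82.6 CPM (-0.38 ± 0.18, edgeR adjusted p = 0.376). In both, hsl2 1 was the lowest library. Their exon lengths, 3902 to 4489 bases, fall in the class whose median over all tested genes was -0.23, and the part of length was not tested.

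Of the 15 ARF genes 14 were tested, 10 of them below 0 (48.4% of all tested genes were), with a median of -0.20. Their summed level was 533, 575 and 499.96 CPM in wild type 1 to 3 and 344, 483 and 517 CPM in hsl2 1 to 3, so that hsl2 1 stood apart and hsl2 3 lay within the wild type range. ARF16, which acts with ARF10 in root cap formation, had 48.3, 55.3 and 44.2 CPM in wild type and 39.7, 37.3 and 34.4 CPM in hsl2. It was the 1 of the 14 tested ARF genes with every hsl2 library below every wild type library, against 9.44% of all tested genes. Its log2 fold change was -0.41 ± 0.14 (edgeR adjusted p = 0.3004). ARF5, or MONOPTEROS, had 43.2, 48.1 and 33.7 against 25.2, 30.4 and 35.5 CPM, which overlapped (-0.46 ± 0.17, edgeR adjusted p = 0.334). Summed root cap markers were also lower in the hsl2 libraries, although hsl2 2 and wild type 3 were nearly equal, and tested and untested ARF genes have exon lengths from 2514 to 4432 bases. The part of either in the ARF values was not tested.

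Auxin-induced genes outside the Aux/IAA family were mostly too low to test. Of 15 such genes, 6 passed the filter, 3 above and 3 below 0, with a median of -0.0022. HAT2, a homeodomain-leucine zipper factor, had 47.7, 46.8 and 52.0 CPM in wild type and 59.1, 65.6 and 64.6 CPM in hsl2 (0.37 ± 0.12, edgeR adjusted p = 0.3004). It was the 1 of the 6 with every hsl2 library above every wild type library, against 11.3% of all tested genes. PID, the kinase that acts on PIN auxin carriers, had a log2 fold change of -0.24 ± 0.18 (edgeR adjusted p = 0.565).

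The 250 bases before each gene's annotated start were searched on both strands for the auxin response element TGTCTC and its higher-affinity form TGTCGG. Either was found for 13 of the 29 Aux/IAA genes (44.8%) and for 1 of the 6 receptors, AFB5, against 14.7% of the windows of 27443 protein-coding genes. TGTCTC was in 9 Aux/IAA windows (31.03%, against 10.9%) and TGTCGG in 6 (20.7%, against 4.16%), and the windows of IAA1 and IAA5 held both. Of the 8 genes with the smallest p-values, IAA12 and IAA16 had a match, TGTCGG in both. The median log2 fold change was 0.38 both over the 9 tested Aux/IAA genes with a match and over the 14 without. The windows of IAA28, with the smallest p-value and no match, and of IAA19, with 3 matches, are shown for contrast, from TAIR10.1 and on the strand of the gene, with matches in capitals.
IAA28: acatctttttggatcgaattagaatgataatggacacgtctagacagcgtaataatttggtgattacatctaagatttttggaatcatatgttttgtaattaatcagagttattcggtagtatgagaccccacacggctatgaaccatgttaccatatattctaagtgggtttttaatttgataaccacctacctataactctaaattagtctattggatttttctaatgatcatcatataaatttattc
IAA19: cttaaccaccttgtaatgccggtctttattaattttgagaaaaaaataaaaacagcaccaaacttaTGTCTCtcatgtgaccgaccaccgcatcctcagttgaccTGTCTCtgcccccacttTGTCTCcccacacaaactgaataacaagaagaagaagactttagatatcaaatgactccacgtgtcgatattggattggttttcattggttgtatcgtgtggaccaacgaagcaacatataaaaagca
The first lies at chr5:9032954-9033203 and the second at chr3:5263751-5264000, both on the plus strand. A match is a run of letters and not a measured binding site.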

How the data were processed

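Stranded RNA libraries of 6 root tip samples were compared, 3 per genotype, grouped by sample title. The authors deposited raw counts of reads per gene, 1 file per sample, not normalized. Per the submitters' processing notes they used Trimmomatic 0.33, STAR 2.5.1b and featureCounts; the sources used here do not name the genome build, the annotation or the strand setting. Of 37336 identifiers, 37051 matched the TAIR10.1 annotation from RefSeq, which gave exon lengths, sequences and neighbours; all 35 members matched. Proteins came from the gene model numbered 1.

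The counts were fitted in R 4.3.3 with edgeR 4.0.16 (filterByExpr, TMM, quasi-likelihood F-test, genotype as the only term, 4 residual degrees of freedom, Benjamini-Hochberg over 17989 genes, threshold 0.05). The standard error is the log2 fold change over the square root of F. Scripts were tested on simulated data. Counting intervals and floors (3 counts) cover counting error only. No library duplicated another: the chi-square per degree of freedom between libraries of a genotype was 6.17 or more. Alternatives were RLE and upper-quartile scaling, no filter, at least 1 CPM in 3 libraries, DESeq2 1.42.0, limma-voom (limma 3.58.1), a block for the replicate number, each library left out, plain total counts and the longest transcript as length; leaving out hsl2 1 and wild type 3 together was added after seeing the data. Identity was computed with Biopython 1.88 under Python 3.11.15.

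The members, the pathway and marker lists and the naming rule were chosen with earlier results of these data known. The rule named all receptors, the 8 Aux/IAA genes of smallest p (those with an unadjusted p under 0.05), the 5 with the highest wild type level per kb, members under the filter, and up to 2 genes of smallest p in each pathway list. IAA13, IAA30 and the remaining members were named to account for every gene, after their values were seen.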

Additional observations from a re-analysis of the deposited data

How the results depend on the processing

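The number of genes past the threshold was 0 of 17989 tested with edgeR and 110 of 24183 with no filter. It was 52 of 17989 with the replicate number as a block and 292 of 17989 with DESeq2. Without hsl2 1 and wild type 3 it was 1311 of 18214. With each library left out in turn it was 0 to 55, of 18189 to 18229 genes tested. The number of members called was 1 with no filter (IAA28), 1 with the replicate block (IAA28), 2 with DESeq2 (IAA18 and IAA28), 6 without hsl2 1 and wild type 3, and 0 to 1 with each library left out. RLE and upper-quartile scaling, the 1 CPM filter and limma-voom called 0. Tested Aux/IAA genes above 0 numbered 20 to 23 with each library left out and 27 of 28 with no filter. Receptors below 0 numbered 3 to 6 with each library left out and 2 without hsl2 1 and wild type 3. There TIR1 turned to a log2 fold change of 0.046 and AFB5 to 0.066. With each library left out AFB5 ranged from -0.24 to 0.030, above 0 without hsl2 1, AFB1 from -0.0027 to 0.12 and AFB2 from -0.056 to 0.12, both below 0 without wild type 1. Without wild type 1 the value was 0.22 for IAA16 and 0.32 for IAA17; IAA7 ranged from 0.0041 to 0.25, IAA8 from 0.034 to 0.24, TIR1 from -0.30 to -0.053 and AFB3 from -0.13 to -0.061. None of these was called, and the causes were not tested. With plain total counts 8 Aux/IAA genes, not 9, were higher in every hsl2 library. The share of 11.3% over all tested genes holds for TMM-adjusted CPM. No share is given here for plain total counts, so the 8 cannot be set against one. With the longest transcript as length no member moved by more than 1 place in the order of levels.

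The replicate numbers were not treated as pairs: deviations of same-numbered libraries correlated at 0.15, 0.08 and 0.0062, and not every library correlated best with its own number. With the replicate block IAA28 had a log2 fold change of 1.21 and an adjusted p of 0.0392. Depth limits the 6 Aux/IAA genes under the filter, none with more than 13 counts in a library.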
